A study of Mus musculus with 7 samples.

Results

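The resting choroid plexus of the lateral ventricles was described in 4 saline libraries out of the 7 of the series. The members were the libraries labelled as saline controls. They were taken by label, with earlier results of these data known. Each library was made from choroid plexus pooled from wild-type CD-1 mouse embryos, an outbred stock, at E15.5 (embryonic day), 24 h after saline was given. All 4 belonged to batch 1, and how many embryos and litters were pooled per library is not stated in the labels. The labels call the libraries biological replicates without saying how litters were divided among them, so a spread between libraries may contain technical and biological parts. The label of lateral ventricle choroid plexus was checked against marker genes below.

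The choroid plexus is a fold of tissue in each brain ventricle that makes cerebrospinal fluid (CSF). A single layer of epithelial cells, joined by tight junctions and bearing cilia, surrounds a core of fibroblast-like cells, macrophages and leaky, fenestrated capillaries. The epithelium moves salt and water from blood to ventricle with the sodium pump, cotransporters and bicarbonate carriers, and it secretes carrier proteins and growth factors that reach the neural progenitors lining the ventricles. In the embryo the epithelium arises from the roof plate and the neighbouring cortical hem.

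Levels are given in TPM, a transcript measure in which the count of a gene is divided by its exon length and each library is scaled to the same total, so that genes can be compared with each other. A gene was called detected where it had at least 1 TPM in every saline library. Total counts were 6732139, 6219528, 8386928 and 4393860 in saline libraries 1 to 4. Detection covered 14666 of 40873 genes (35.9%) and 13011 of 20340 protein-coding genes (64%), and list counts below are read beside these shares. For a gene with 2000 bases of exon, 3 counts corresponded to 0.556 TPM in the deepest library and 1.01 TPM in the shallowest. Values are means ± SD over the 4 libraries, the SD is the spread between pools, and no groups were compared.

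Some libraries stood apart on small sets of genes. Saline 4, the shallowest library, held 2442 TPM over 11 hepatocyte genes, against 6.58, 4.40 and 37.3 TPM in saline 1 to 3. Its 13 neuronal genes summed to 62.7 TPM, against 142, 122 and 113 TPM in the others. Saline 3 held 87.5 TPM over 10 keratinocyte and muscle genes, against 3.09 to 8.01 TPM elsewhere. Saline 3 also had 0.0764 TPM of the Y-linked gene Ddx3y, where the others had 58.3, 38.9 and 42.0 TPM. Summary values with each library left out in turn are given below, and the cause of these differences was not tested.

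Ttr, the transthyretin gene whose product carries thyroid hormone and retinol-binding protein in CSF, was the most abundant transcript. Its level was 27262, 26751, 23630 and 32973 TPM in saline 1 to 4 (27654 ± 3892, SD, n = 4). Saline 4 was highest and saline 3 lowest, and even the lowest value lay more than 3-fold above the highest value of any other gene. Over saline 1 to 3 the mean of Ttr was 25881 ± 1966 TPM. Ttr alone held 2.77% ± 0.39 of all TPM. Eef1a1, a translation elongation factor, came next at 6690, 6864, 6303 and 7142 TPM, a range that did not meet that of Ttr.

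The rest of the leading 25 genes fell into a few groups. Of these, 5 were transcripts of the mitochondrial genome, led by COX1 of cytochrome oxidase at 5775 ± 869 TPM and CYTB of complex III at 5284 ± 702 TPM. Their number and order are as counted, since COX2, ATP6, ATP8, COX3, ND3 and ND4L had at most 8 counts per library. Another 4 of the leading 25 encode ribosomal proteins (Rpl41, Rps23, Rplp1 and Rpl7, from 2152 to 2425 TPM on average). A further 3 are globin genes of red cells, Hbb-bs at 5504 ± 938, Hba-a1 at 4563 ± 809 and Hbb-bt at 2358 ± 913 TPM. Igfbp2, which binds insulin-like growth factors, reached 4157 ± 192 TPM. Ctsd, a lysosomal protease, reached 4057 ± 116 TPM, and Bsg, the partner protein of monocarboxylate carriers, 3822 ± 164 TPM. Clu, a secreted chaperone of CSF, had 2862 ± 61 TPM. The epithelial transport genes Slc6a15, Kcne2 and Clic6 stood at 2469 ± 136, 2288 ± 64 and 2218 ± 83 TPM. The order inside the list was mostly not resolved, because the ranges of neighbours overlapped in 22 of 24 pairs; Ttr and Eef1a1, and Clu and Slc6a15, were the pairs that lay apart.

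Abundance was concentrated without being dominated by single genes other than Ttr. The leading 10 genes held 7.24% ± 0.54 of TPM, the leading 100 held 21.7% ± 0.80 and the leading 1000 held 53.9% ± 0.72. The first 25% of the total needed 135 genes, and 50% needed 793. In every library 1752 genes had at least 100 TPM and 102 had at least 1000 TPM. Cytosolic ribosomal protein genes held 7.70 to 8.03% of TPM, mitochondrial genes 2.24 to 2.93% and long non-coding RNAs 1.59 to 1.66%.

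**Figure D1:**
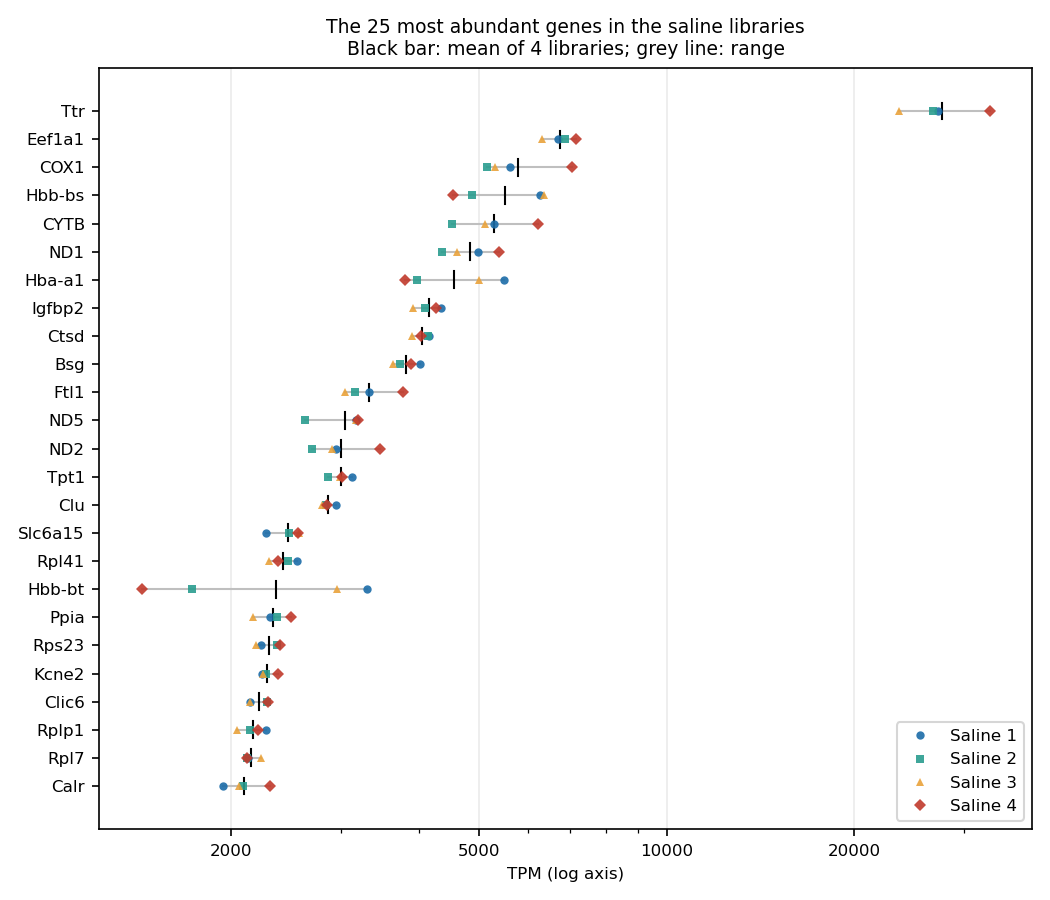
TPM on a log axis of the 25 genes with the highest mean, with 1 symbol per saline library, a black bar at the mean and a grey line over the range. Ttr stands alone at 23630 to 32973 TPM, while most neighbours further down overlap, and Hbb-bt spreads from 1438 to 3309 TPM.

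Epithelial markers were present, as the label would have it. The choroid epithelium list, drawn up with earlier results of these data known, had 24 of 25 members detected. Detection alone does not identify the tissue, since all 18 endothelial and 16 of 17 mesenchymal genes were detected too. Folr1, the folate receptor that delivers folate to CSF, had 1550, 1406, 1445 and 1418 TPM (1455 ± 66; GRCm39 chromosome 7, 101507551 to 101519974, minus strand). Aqp1, the apical water channel, had 1253, 1203, 1333 and 1173 TPM (1240 ± 70; chromosome 6, 55313284 to 55325540, plus strand). No library stood apart on either gene. Otx2, the homeobox factor needed for choroid plexus formation, had 367, 391, 409.8 and 369.9 TPM (384 ± 20; chromosome 14, 48894238 to 48905101, minus strand). Kcnj13, an inward-rectifier potassium channel of the apical membrane, had 166, 182, 180.4 and 173 TPM (175 ± 7.6; chromosome 1, 87309133 to 87322451, minus strand). On neither gene did a library stand apart.

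Further epithelial genes ran from above 1000 TPM to below detection. Ecrg4, which encodes a secreted peptide precursor, had 1182 ± 171 TPM. Enpp2, the gene of the lysophospholipase autotaxin, had 1082 ± 18 TPM, and Sostdc1, a secreted BMP and Wnt antagonist, 1068 ± 56 TPM. Calml4, a calmodulin-like gene, had 1053 ± 46 TPM, and the keratin genes Krt18 and Krt8 had 592 ± 27 and 358 ± 32 TPM. At the low end, Kl, the klotho gene, had 42.2, 22.5, 40.2 and 24.4 TPM, with saline 1 and 3 above saline 2 and 4. Epcam, a general epithelial adhesion gene, had 31.8 ± 8.7 TPM and Cdh1, the E-cadherin gene, only 5.29 ± 2.5 TPM. Prlr, the prolactin receptor, was the one undetected member, with 13, 7, 10 and 3 counts (0.264 ± 0.11 TPM). Summed without Ttr, the list held 1.62, 1.58, 1.67 and 1.57% of TPM (1.61 ± 0.046), a spread of 2.88% of its mean. The median coefficient of variation (CV) of its members was 5.83%, and the median CV that counting error alone would give them was 1.80%.

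Cilium genes were present throughout the program of multiciliated cells, which assemble many motile cilia on 1 surface. Of 32 list members, 30 were detected, and all 9 regulators were among them. Foxj1, the transcription factor that drives motile cilium genes, had 606, 674, 566 and 669.7 TPM (629 ± 52; chromosome 11, 116221530 to 116226331, minus strand). Gmnc, which starts the multiciliated fate, had 70.1 ± 16 TPM, and Mcidas, its close relative acting with E2F factors, 26.5 ± 4.8 TPM. Ccno and Deup1, needed to multiply centrioles, had 58.6 ± 12 and 63.7 ± 13 TPM. Trp73, a p53 family gene upstream of Foxj1, had 75.2 ± 5.7 TPM. Among structural genes, Rsph1 of the radial spokes led with 434, 516, 475 and 566 TPM. Cfap126 had 343 ± 16, Pifo 272 ± 11 and Tekt1, a tektin of the axoneme, 198 ± 5.8 TPM. The dynein heavy chain genes lay lower, with 65.2 ± 3.1 TPM for Dnah9, 37.3 ± 2.6 for Dnah11 and 3.91 ± 0.44 for Dnah5. Tmem212 and Ccdc153 were the members that were not detected, at 0.166 ± 0.33 and 0.763 ± 0.18 TPM.

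Since the cilium genes were detected together with the RFX factors that bind X-box sequences (Rfx3 at 56.0 ± 5.2 and Rfx2 at 32.5 ± 2.4 TPM), their upstream windows were searched for X-box-like letters. RefSeq windows on GRCm38.p6, cut to the 250 bases before each gene start, were at hand for 27 of the 32 genes (34 windows). The letters GTTNCC followed after 3 bases by GNAAC, on either strand, occurred in 3 of 34 windows (8.82%). The share was 0.667% of all 32851 windows and 0.882% of the 14405 windows of detected genes. The same spelling occurred in 0 of 26 windows of the epithelial list, too few to set against the cilium genes at so low a share. The shorter GTTGCC, on either strand, occurred in 10 of 34 windows of the cilium genes (29.4%) and in 5 of 26 of the epithelial list (19.2%). Its share was 10.4% of all windows and 10.9% of those of detected genes, and it can lie inside the longer spelling. Another spelling, TAATCC, occurred in 1 of 34 windows of the cilium genes (2.94%) and in 1 of 26 of the epithelial list (3.85%). Its share was 6.25% of all windows and 5.12% of those of detected genes. These spellings were settled after several had been counted, so the shares are descriptions, and a match is not a shown binding site. The 3 windows with the longer match are printed because they place a match close to the start of 3 genes detected here. Capitals mark the match, which begins 20, 27 and 21 bases before the start in Pifo, Cfap44 and Hydin. As printed, the spelling reads forward in Pifo and on the opposite strand in Cfap44 and Hydin. Cfap44, a cilium-associated protein gene, had 159 ± 14 TPM and Hydin, of the central pair of the axoneme, 27.0 ± 1.5 TPM.
Pifo (chr3:106001498-106001747, minus strand): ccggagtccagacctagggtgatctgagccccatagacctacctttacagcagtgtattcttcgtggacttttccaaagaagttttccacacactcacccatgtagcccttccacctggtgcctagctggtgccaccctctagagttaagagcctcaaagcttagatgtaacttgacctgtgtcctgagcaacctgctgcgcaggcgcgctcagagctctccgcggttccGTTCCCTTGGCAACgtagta
Cfap44 (chr16:44394549-44394798, plus strand): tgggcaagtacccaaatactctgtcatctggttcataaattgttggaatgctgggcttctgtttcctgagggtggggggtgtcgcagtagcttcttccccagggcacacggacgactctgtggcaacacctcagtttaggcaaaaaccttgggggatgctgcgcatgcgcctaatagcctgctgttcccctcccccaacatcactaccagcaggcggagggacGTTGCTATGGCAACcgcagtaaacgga
Hydin (chr8:110266727-110266976, plus strand): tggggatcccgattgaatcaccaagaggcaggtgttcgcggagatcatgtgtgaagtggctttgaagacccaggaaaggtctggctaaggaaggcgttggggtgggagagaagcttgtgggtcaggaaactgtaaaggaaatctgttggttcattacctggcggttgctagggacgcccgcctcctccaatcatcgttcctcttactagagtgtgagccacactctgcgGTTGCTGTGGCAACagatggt

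The other cells of the tissue were read from marker sums. In bulk RNA, fewer cells of a type and less RNA per cell cannot be told apart, so the sums are not cell shares. Mesenchymal genes held 0.215% ± 0.010 of TPM with 16 of 17 detected. Ogn, a small matrix proteoglycan, led at 858 ± 90 TPM, followed by the collagen genes Col1a2 (308 ± 19) and Col3a1 (233 ± 18 TPM). Endothelial genes held 0.131% ± 0.0069, and all 18 were detected. Plvap, the gene of the diaphragms of fenestrated capillaries, had 178, 164, 178 and 172 TPM. Mfsd2a, a lipid carrier of blood-brain barrier endothelium, had 3.98, 3.26, 5.38 and 2.56 TPM, from 46 counts at most. The ratio of Plvap to Mfsd2a lay between 33.0 and 67.0 in the 4 libraries. Mural genes of pericytes and smooth muscle summed to 340.5 ± 33 TPM, led by Rgs5 at 119 ± 7.7 TPM.

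Blood cells and immune cells were uneven between pools. Macrophage genes held 0.0654, 0.0437, 0.0564 and 0.0551% of TPM in saline 1 to 4, with 19 of 20 detected. The complement gene C1qa led at 68.5 ± 10 TPM, and Csf1r, the receptor that macrophages need to survive, had 50.2 ± 4.5 TPM. Mrc1, a mannose receptor of border macrophages, had 40.1 ± 4.7 TPM, and P2ry12, a microglial receptor, 4.60 ± 0.89 TPM. Erythroid genes summed to 15720, 11194, 15014 and 10308 TPM, with saline 1 and 3 above saline 2 and 4. Nearly all of this was globin. Alas2, the first enzyme of red cell heme synthesis, had the same higher pair at 333, 191, 352 and 148 TPM, with saline 3 highest. Hbb-y, an embryonic globin, ran the other way at 6.54, 154, 21.0 and 158 TPM. Neutrophil genes summed to 79.1, 12.3, 13.7 and 49.7 TPM, led by S100a9, and 3 of 11 were detected. No lymphocyte or mast cell gene of 9 was detected.

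Neural genes were low in level. Of the neuronal list, 9 of 13 were detected, beside 64% of all protein-coding genes, so the count itself was not low. The list held 0.0110% ± 0.0034 of TPM, led by Tubb3, a neuronal tubulin, at 63.9, 49.8, 41.1 and 20.6 TPM. Saline 4 was lowest, and Stmn2, a microtubule regulator of growing axons, had 8.53 TPM there against 25.5 to 27.3 TPM elsewhere. Neural progenitor genes summed to 369 ± 22 TPM, most of it Fabp7, a radial glial lipid-binding gene (120.0 ± 14), and Sox2 (105 ± 7.6 TPM). Oligodendrocyte and astrocyte genes summed to 45.3 ± 2.5 TPM, of which Cnp made 30.3 ± 5.6. Wnt8b, a gene of the cortical hem, had 9.33, 24.7, 19.6 and 17.4 TPM. Cell cycle genes were all detected (12 of 12, 616 ± 36 TPM), led by the replication clamp gene Pcna at 170.5 ± 6.9 TPM, and Mki67 had 42.3 ± 3.9 TPM.

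Position along the brain was read from regional genes. None of 39 Hox genes, which mark the hindbrain and spinal cord, was detected, and all of them together had 42 counts over the 4 libraries. Shh, which the hindbrain choroid plexus is known to express, had 1.26, 1.203, 0.647 and 0 TPM. Emx2, a forebrain factor, had 27.2 ± 2.3 TPM. These values did not go against the labelled site, the lateral ventricle.

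**Figure D2:**
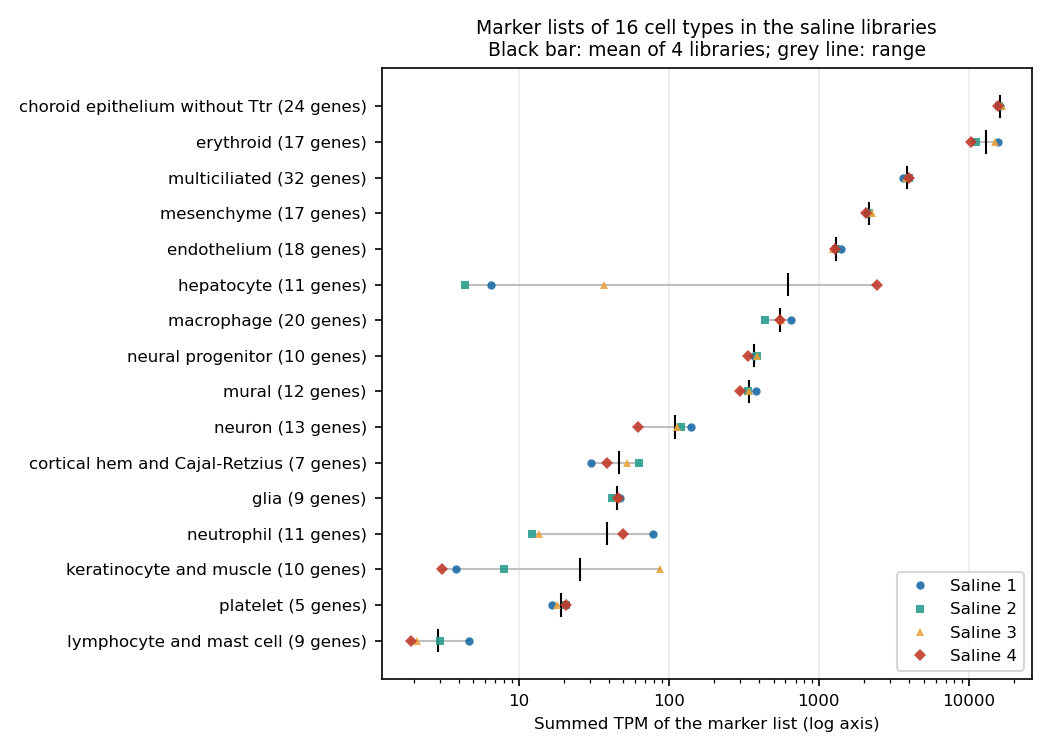
Summed TPM (log axis) of 16 marker lists, with 1 symbol per saline library, a black bar at the mean and a grey line over the range. Epithelial, mesenchymal and endothelial sums lie close together across libraries, and the hepatocyte sum reaches 2442 TPM in saline 4 and the keratinocyte and muscle sum 87.5 TPM in saline 3.

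Transport genes, the machinery of CSF secretion and blood-CSF exchange, held 2.17, 2.15, 2.21 and 2.14% of TPM over 140 listed genes (2.17 ± 0.032). Of these, 119 were detected. By symbol, 258 of 397 SLC and SLCO carrier genes were detected (65.0%), which lies near the 64% of all protein-coding genes. Of 98 potassium channel genes, 39 were detected.

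The sodium pump drives secretion from the apical membrane. Its beta subunit genes Atp1b1, Atp1b2 and Atp1b3 had 381 ± 39, 226 ± 18 and 223 ± 12 TPM, and the ranges of the last pair overlapped. Slc12a2, the sodium-potassium-chloride cotransporter NKCC1 at the apical membrane, had 311, 277, 320.5 and 236 TPM (286 ± 38). Saline 4 was lowest. The potassium-chloride cotransporters Slc12a4 and Slc12a7 had 160 ± 5.0 and 40.7 ± 2.4 TPM. Slc12a1, the kidney cotransporter, was not detected (0.530 ± 0.15 TPM), and Slc9a3, a sodium-proton exchanger, had 0 counts.

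Bicarbonate handling was abundant. Carbonic anhydrases interconvert carbon dioxide and bicarbonate. The membrane forms Car12 and Car14 had 1086 ± 63 and 591 ± 21 TPM, and the cytosolic Car2 had 548 ± 46 TPM. Slc4a2, the basolateral chloride-bicarbonate exchanger, had 642, 659, 593 and 663 TPM. Slc4a5, an apical sodium-bicarbonate cotransporter, had 276 ± 16 TPM and Slc4a10, a basolateral one, 109.6, 80.8, 109.5 and 67.0 TPM. Saline 1 and 3 were the higher libraries for Slc4a10.

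Of 11 aquaporin genes, Aqp1 and Aqp11 were detected, and Aqp11 had 30.7 ± 2.5 TPM. Aqp8 had 0.908, 0.994, 0 and 72.8 TPM, and Aqp5 had 0.290, 0.635, 0 and 28.4 TPM. Saline 4 held nearly all counts of both, with means of 18.7 and 7.32 TPM over 4 libraries and 0.634 and 0.308 TPM without it. Aqp4, the water channel of astrocytes, had 0.771 ± 0.23 TPM.

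Channel genes were led by Kcne2, a regulatory potassium channel subunit (2245, 2272, 2251 and 2382 TPM), and Clic6, a chloride intracellular channel family gene (2148, 2285, 2144 and 2295 TPM). Their ranges overlapped. Kcnq1, a pore subunit with which Kcne2 is known to assemble, had 3.52 ± 0.29 TPM. Trpm3 and Trpv4, cation channels of the epithelium, had 261 ± 31 and 69.7 ± 9.8 TPM.

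Slc6a15, a sodium-dependent carrier of neutral amino acids, was the most abundant carrier at 2276, 2476, 2567 and 2558 TPM (2469 ± 136; chromosome 10, 103203320 to 103255240, plus strand). It stood 3.52-fold ± 0.25 above Slc25a4, the mitochondrial ADP/ATP carrier and the next SLC gene. All 21 amino acid carrier genes were detected. Slc16a10, an aromatic amino acid carrier, had 220.4 ± 34 TPM, Slc7a1, for cationic amino acids, 135 ± 5.7 and Slc7a11, the cystine-glutamate exchanger, 106 ± 7.8 TPM.

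Among sugar, vitamin and organic anion carriers, the glucose carrier Slc2a1 had 302, 287, 354 and 263 TPM, and Slc2a12, another facilitative sugar carrier, 129.5 ± 8.9 TPM. Slco1a4 and Slco1c1, which carry organic anions, had 303 ± 34 and 97.6 ± 22 TPM. The vitamin C carrier Slc23a2 had 262, 197, 268 and 199.6 TPM, again with saline 1 and 3 higher. Slc19a1, the reduced folate carrier, had 80.5 ± 5.1 and Slc46a1, the proton-coupled one, 28.5 ± 3.7 TPM, both far below Folr1.

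Metal transport was led by Slc31a1, the copper importer, at 585 ± 41 TPM, and its exporter Atp7a had 120.2 ± 17 TPM. The ABC genes, which pump lipids and drugs, were low: Abca1, a cholesterol exporter, led the listed ones at 105 ± 4.8 TPM, and Abcg2 had 19.8 ± 1.1 TPM. Abcb1b had 1.26, 0.197, 0.297 and 59.4 TPM, with a mean of 15.3 TPM over 4 libraries and 0.586 TPM without saline 4. Its close relative Abcb1a had 5.64 ± 1.8 TPM.

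Among the most abundant transport genes, the range of Clic6 lay above that of Folr1 and the range of Folr1 above that of Aqp1. The ranges of Aqp1 and Car12 overlapped, as did those of Slc4a2 and Car14.

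**Figure D3:**
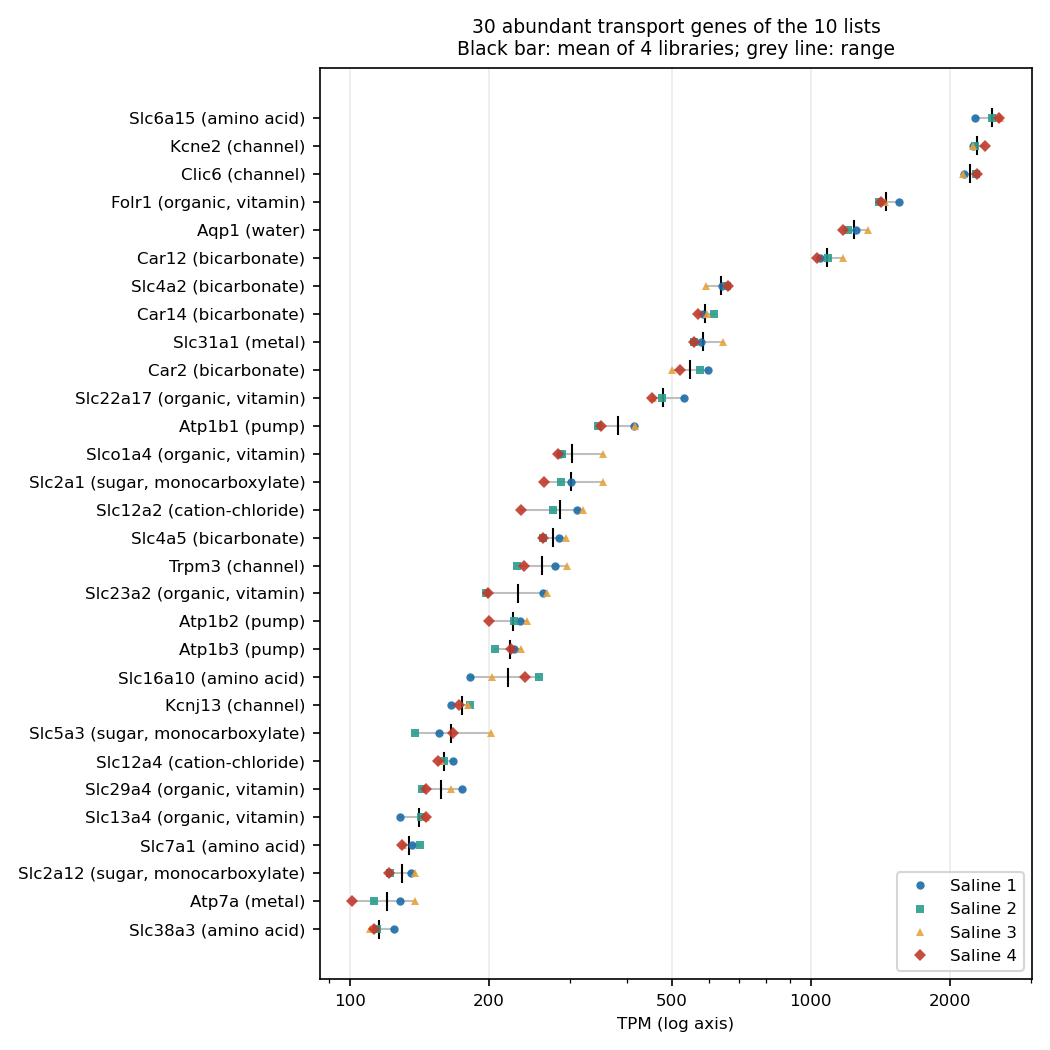
TPM (log axis) of 30 abundant transport genes, with the list of each in brackets, 1 symbol per saline library, a black bar at the mean and a grey line over the range. Slc6a15, Kcne2 and Clic6 form the top group between 2144 and 2567 TPM, and Folr1, Aqp1 and Car12 the next.

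The barrier itself was represented by claudins, the strand proteins of tight junctions. Cldn1 had 532, 494, 586 and 489 TPM and Cldn2, a pore-forming claudin, 251, 177, 251 and 165 TPM, so that the ratio of Cldn1 to Cldn2 was 2.55 ± 0.39. Cldn3 had 113 ± 14 and Cldn11 68.6 ± 15 TPM. Cldn5, the claudin of barrier endothelium, had 95.0, 63.3, 43.2 and 54.9 TPM. In all 12 of 35 claudin genes were detected (34.3%).

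Secreted factors held 3.22% ± 0.086 of TPM without Ttr, and 144 of 179 listed genes, Ttr included, were detected. The insulin-like growth factor group held 0.727% of TPM. Igf2, a fetal growth factor, had 1939, 1909, 1825 and 1948 TPM (1905 ± 56), and Igfbp2 stood 2.18-fold ± 0.045 above it. Igfbpl1, Igfbp7 and Igfbp4 had 399 ± 39, 285 ± 40 and 235 ± 15 TPM, and Igf1 had 22.7 ± 3.1 TPM.

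Carriers and protease inhibitors were also abundant. Cst3, cystatin C, had 1502 ± 39 TPM. Apoe, the brain lipid carrier, had 1196, 1147, 1020 and 1518 TPM, highest in saline 4. Its mean was 1220 TPM over 4 libraries and 1121 TPM without saline 4. Ptgds, a prostaglandin synthase that also carries lipids in CSF, had 413 ± 36 TPM and Selenop, the selenium carrier, 406 ± 35 TPM. Trf, the transferrin gene, had 112, 85.9, 103 and 376 TPM, with a mean of 169 TPM over 4 libraries and 100.4 without saline 4. Rbp4, the plasma retinol carrier, had 13.2, 9.49, 13.4 and 109 TPM, with means of 36.3 and 12.04 TPM. Spint2, a membrane-bound protease inhibitor, had 913 ± 43 TPM.

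Growth factors of the BMP family that pattern the dorsal midline were led by Bmp7 at 326, 360.2, 312 and 383 TPM and Bmp6 at 268, 222, 254 and 214 TPM. Bmp4 had 79.6 ± 4.9 TPM. Sostdc1, their antagonist given above, was more abundant, and so was Fstl1, a follistatin-like gene, at 579.9 ± 51 TPM. Noggin (Nog) had 21.8 ± 2.2 TPM. Of the TGF-beta genes, Tgfb3 had 83.3 ± 6.0 TPM, and Tgfb2 had 37.8 TPM in saline 4 and 7.87 to 8.20 TPM in the others (means of 15.45 with it and 8.01 TPM without it).

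Wnt signalling genes were led by the antagonist Sfrp1 at 513 ± 14 TPM. The agonists Rspo2 and Rspo3 had 47.0 ± 7.1 and 45.0 ± 13 TPM, and Wnt9a, the leading ligand, 37.4 ± 2.9 TPM. FGF and EGF ligands were low, with Tgfa at 21.0 ± 1.7 and Fgf18 at 11.04 ± 1.0 TPM as the leaders. In their list, which also covers hedgehog genes, 8 of 17 were detected.

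Mdk, midkine, which binds heparin and promotes neurite growth, had 1117 ± 103 TPM, and its relative Ptn had 301, 257, 208 and 163 TPM. Vegfa, which keeps choroid capillaries fenestrated, had 159, 159, 157 and 141 TPM. Among axon guidance genes, Slit3 and Slit2 had 130.2 ± 4.3 and 102 ± 14 TPM, and Sema3c, Sema3f and Sema3b had 113 ± 13, 103 ± 3.7 and 94.8 ± 1.9 TPM. Neuropeptides and neurotrophins were scarce, with 8 of 17 detected. Penk, the enkephalin precursor, had 44.1 ± 5.3 and Nrtn, neurturin, 24.2 ± 6.3 TPM, while Bdnf had 0.330 ± 0.15 TPM.

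All 28 matrix genes were detected. Sparc, a collagen-binding protein gene, had 2223, 1883, 2078 and 1878 TPM, Col9a3 had 921 ± 19.5 and the basement membrane collagens Col4a2 and Col4a1 had 550.5 ± 47 and 467 ± 34 TPM. Matrix genes held 0.789% ± 0.036 of TPM, more than any other secreted list apart from the one that contains Ttr.

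The receptors through which the tissue is itself addressed were led by Htr2c, the serotonin receptor that the choroid plexus is known for, at 582, 584, 627 and 549.5 TPM. Smo, of hedgehog signalling, had 156 ± 8.6, Igf2r 136 ± 4.7, Stra6, the retinol-binding protein receptor, 116 ± 7.6 and Ntrk2, the BDNF receptor, 60.1 ± 1.8 TPM. Egfr had 2.43 ± 0.14 TPM.

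Transcription factors held 0.659, 0.670, 0.647 and 0.616% of TPM (0.648 ± 0.023), and 137 of 153 listed genes were detected. Foxj1 was the most abundant. Msx1, a homeobox factor of the dorsal midline, followed at 543, 538, 539 and 502 TPM, and then Otx2, the ratio of Msx1 to Otx2 being 1.38 ± 0.070. The leading 6, down to Nfe2l1, an endoplasmic reticulum-bound stress factor (181 ± 10 TPM), were set apart pair by pair. Id3 and Id1, inhibitors of helix-loop-helix factors and known BMP targets, had 302 ± 29 and 171 ± 11 TPM. Sox9, a progenitor factor, had 220.3, 223, 235 and 219.8 TPM.

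The roof plate factors continued with Zic2 at 179.9 ± 5.5, Zic1 at 142 ± 6.3 and Lmx1a, which specifies roof plate and hem, at 135 ± 4.1 TPM. Lmx1b had 0.718 ± 0.080 TPM and was the one undetected member of 26. Lef1, a nuclear effector of Wnt signalling, had 66.3 ± 1.5 TPM.

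Stress and metabolic factors were all detected (13 of 13), with Epas1, the hypoxia factor HIF-2 alpha, at 151 ± 15, Atf4 at 147 ± 11, Srebf1 at 128 ± 12 and Hif1a at 127 ± 14 TPM. Nuclear receptors were led by Nr2f2 at 106 ± 6.2, the thyroid hormone receptor Thra at 90.6 ± 7.6 and the retinoid X receptor Rxra at 72.5 ± 1.5 TPM, while Thrb had 2.65 ± 0.23 TPM. Neurogenic factors were at the bottom by level, with none above 7.60 TPM on average. Their detection, 13 of 19, was not low beside the 64% of all protein-coding genes. Neurod1 had 2.34, 16.4, 1.34 and 2.44 TPM, with a mean of 5.62 TPM and 2.04 TPM without saline 2. Neural factors spread by 29.5% of their sum between libraries, and the roof plate list by 3.41%. The neural list rested on 290 to 691 summed counts per library and the roof plate list on 11050 to 21377. The spreads are therefore not directly comparable.

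**Figure D4:**
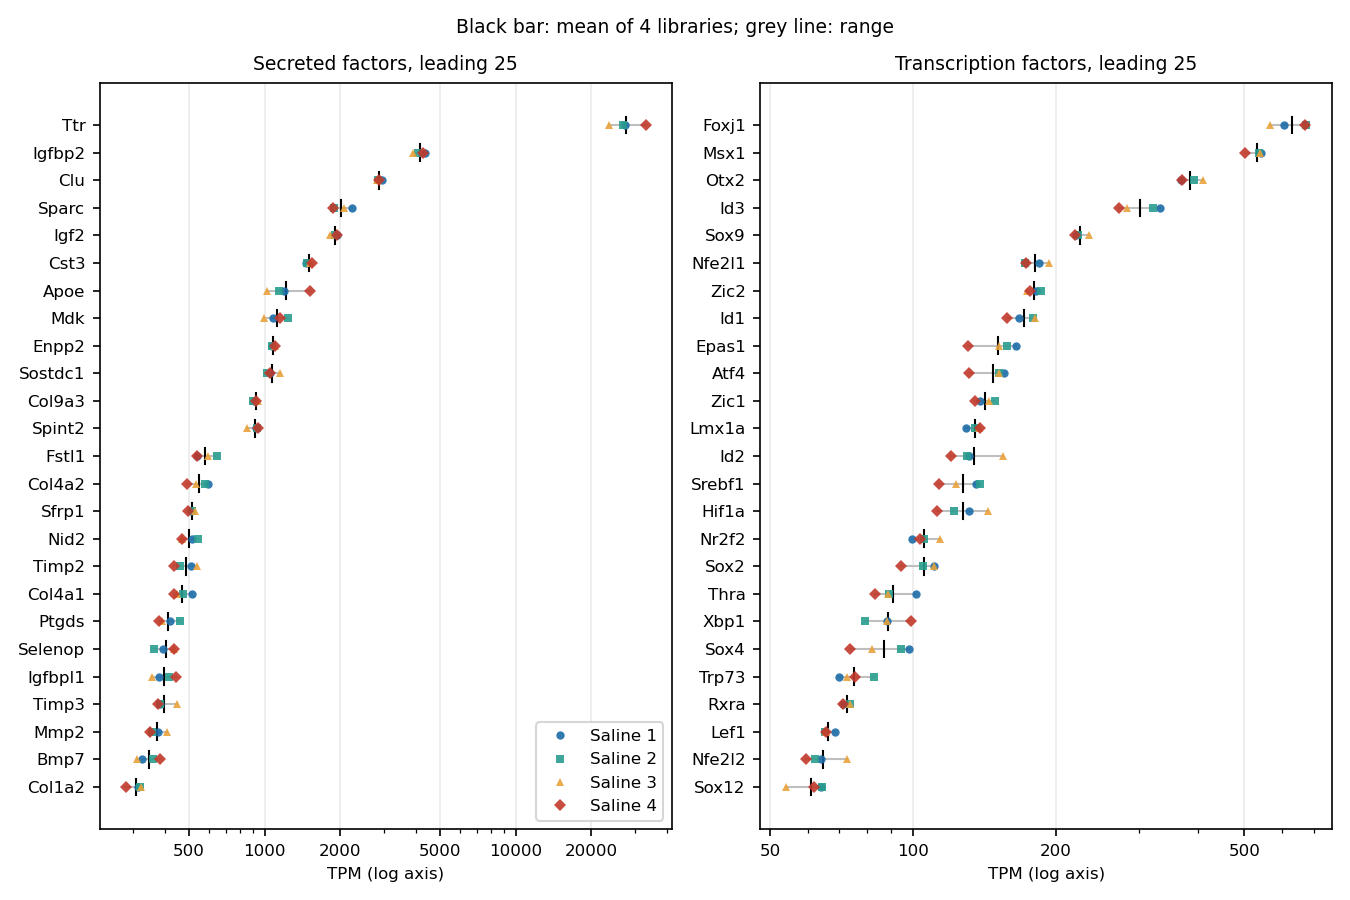
TPM (log axes) of the leading 25 secreted factors (left) and the leading 25 transcription factors (right), with 1 symbol per saline library, black bars at the means and grey lines over the ranges. Ttr lies far to the right of Igfbp2 at 4157 TPM, and Foxj1, Msx1 and Otx2 lead the factors without overlap.

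The 4 pools were alike for most genes. Correlations of log2(TPM + 1) between pairs of libraries, taken over the genes detected in every library, lay between 0.979 and 0.989. They leave out genes missing from a library, such as Afp and Kdm5d, and genes are not independent replicates. The median CV over 10996 genes with at least 50 counts and 5 TPM on average was 8.58%, where the median CV that counting alone would give was 5.78%, and the common biological coefficient of variation was 8.95%. No pair of libraries looked like a repeat deposit of the same library, since every pair differed by more than counting noise (chi-square per degree of freedom between 3.60 and 8.60). Only 55 of these genes (0.50%) had a CV above 50%.

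The 15 genes of highest CV were all highest in saline 4. Of these, 9 encode plasma proteins or lipoproteins that the liver is known to make. Afp, alpha-fetoprotein, had 0, 0.236, 21.1 and 1125 TPM, with a mean of 287 TPM over 4 libraries and 7.13 TPM without saline 4. Alb, albumin, had 1.53, 1.91, 1.26 and 677 TPM, with means of 170.5 and 1.57 TPM. Serpina6, the corticosteroid carrier of plasma, had 549 TPM in saline 4, and Ambp 159, Plg, plasminogen, 56.0 TPM, and all of them had 0 counts in the other libraries. Their means over 4 libraries were 137, 39.6 and 14.0 TPM. Apoa2, Itih2, Apob and Serpinf2 followed at 200.2, 177, 37.3 and 106 TPM in saline 4 and at most 3.36 TPM elsewhere. Their means were 51.8, 45.9, 9.75 and 26.6 TPM over 4 libraries and 2.40, 2.03, 0.578 and 0.0684 TPM without saline 4.

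Of the other 6, Abcb1b is given above. Guca2b, the uroguanylin gene of gut epithelium, had 8.22, 28.6, 0.616 and 1081 TPM. Akr1b7 and Akr1c18, aldo-keto reductases of steroid-handling tissues, had 300.3 and 122 TPM in saline 4 and at most 3.95 TPM elsewhere, and Cuzd1 had 101 TPM against at most 3.39. C3, the central complement gene, made in liver and elsewhere, had 229.7 TPM against at most 4.41. The means of Guca2b, Akr1b7, Akr1c18, Cuzd1 and C3 were 279.6, 76.4, 31.3, 26.5 and 59.1 TPM over 4 libraries and 12.5, 1.80, 0.935, 1.69 and 2.24 TPM without saline 4.

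Saline 3 carried a different set. Acta1, skeletal muscle actin, had 0.573, 1.57, 39.4 and 1.29 TPM, Actc1, cardiac actin, 22.8 and the embryonic myosin gene Myh3 12.8 TPM there. The means of the 3 genes were 10.7, 6.61 and 3.58 TPM with saline 3 and 1.14, 1.21 and 0.491 TPM without it. Xist, the RNA that coats the inactive X chromosome, had 131, 131, 290.1 and 120.3 TPM. The Y-linked gene Kdm5d had 21.1, 11.1, 0 and 13.4 TPM. The count of genes more than 2-fold above the mean of the other libraries was 10, 10, 4 and 45 in saline 1 to 4.

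**Figure D5:**
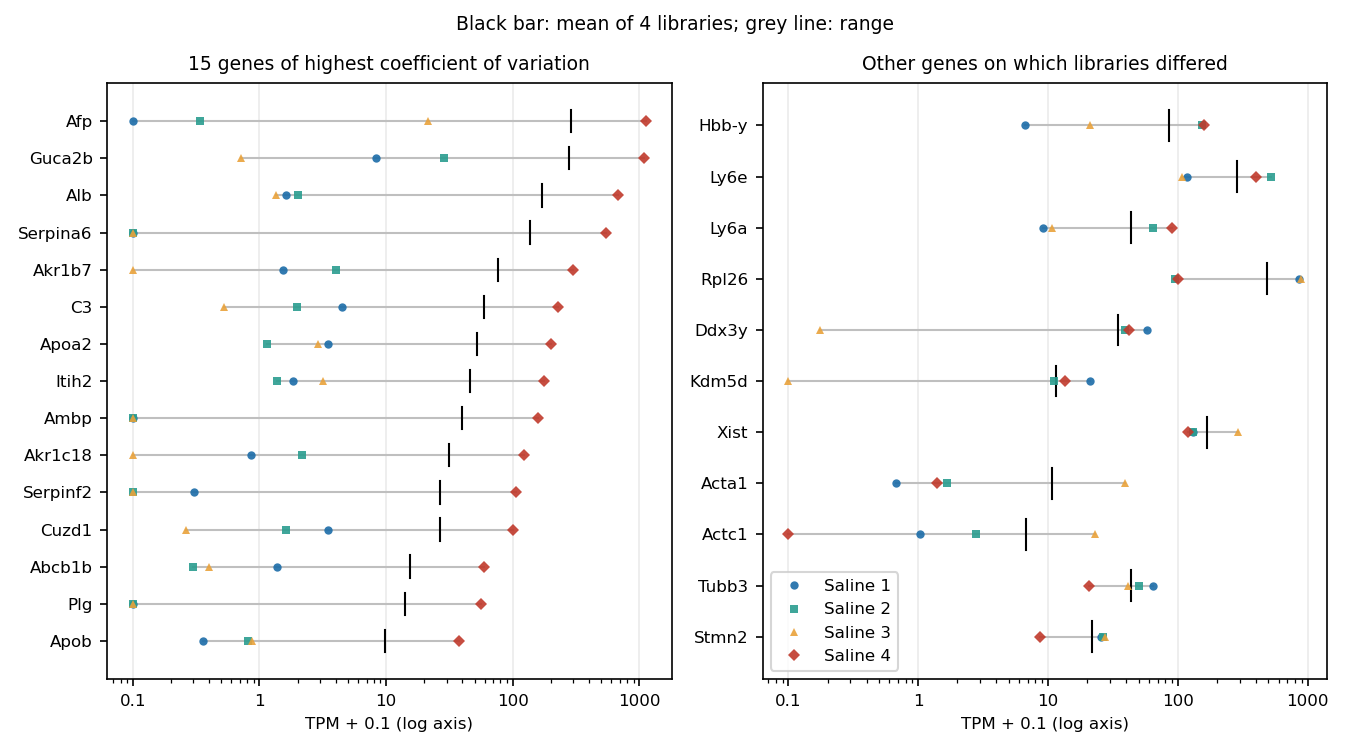
TPM + 0.1 (log axes) of the 15 genes with the highest CV (left) and of other genes on which libraries differed, some chosen after their values were seen (right), with 1 symbol per saline library, black bars at the means and grey lines over the ranges. Saline 4 is highest for all 15 genes on the left, and on the right saline 3 is lowest for Ddx3y and Kdm5d and highest for Xist, Acta1 and Actc1.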

How the data were processed

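Poly(A) RNA of pooled lateral ventricle choroid plexus was sequenced from directional libraries, per the labels' protocols. The authors' deposited values are raw read counts per gene, with the exon length of each gene beside them, as featureCounts writes its tables, per the file headers. Reads were handled with cutadapt 2.5, STAR 2.6.1b and featureCounts 2.0.6 on GRCm39, per the submitters' processing notes. How strand and multi-mapped reads were treated is not stated, so values of overlapping genes and of gene pairs with near-identical sequence, such as Hba-a1 (4563 TPM) and Hba-a2 (7.74 TPM) or Hbb-bs and Hbb-bt, are uncertain. The mitochondrial genes COX2, ATP6, ATP8, COX3, ND3 and ND4L had at most 8 counts per library, where COX1 had at least 16096.

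Of the 40879 genes, 6 whose lines are broken (Dst, Neb, Ttn, Syne1, Mycbp2 and Huwe1; 0.114% of counts) were left out, and 16177 of the rest had 0 counts in every saline library. TPM was computed from counts and lengths over 40873 genes with pandas 2.3.3 and Python 3.11.15. Gene types came from a RefSeq name table matched by symbol (92.2% of genes), and promoter windows from RefSeq on GRCm38.p6, which lack several genes, Folr1 and Foxj1 among them. The script was tested on simulated counts. The red blood cell libraries were not used. As no groups were compared, no test between groups was run; a chi-square of counts checked for repeat deposits of a library, and Dixon's limit marked libraries far from the others. TMM factors and dispersion came from edgeR 4.0.16 under R 4.3.3. Figures were drawn with matplotlib 3.10.9.

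The members and the 50 gene lists were chosen with earlier results of these data known. All 722 listed genes but Rn45s were matched. Named genes are the 25 of highest mean TPM, the 5 leading members of each list with at least 1 TPM, the 10, 5, 5 and 3 leading SLC, potassium channel, ABC and Hox genes, the 15 of highest CV among genes with at least 50 counts and 5 TPM, and Ttr, Otx2, Folr1, Kcnj13, Aqp1, Foxj1, Slc12a2, Igf2, Shh and Xist. Some genes of these lists are not reported here; they stay in the list counts and sums. Further list members and Prap1, Rpl26, Ly6e, Ly6a, Fam163a and Tmem181c-ps were named after their values were seen. Alternatives were other TPM totals, no length scaling, TMM scaling, medians, rejoined lines, filters on short or rarely counted genes, other detection thresholds and each library left out.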

Additional observations from a re-analysis of the deposited data

Results flagged for a closer look

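Of 334 values looked at (summary shares, list sums and named genes), 48 had 1 library whose gap to its nearest neighbour exceeded Dixon's limit for 4 values, where chance flags about 1 in 20. The values include the 15 genes chosen for the highest CV, all 15 of which passed the limit, and list sums that hold some of them, so their number is a description and not set against chance. Saline 4 stood apart in 29 of them, saline 3 in 12, saline 2 in 4 and saline 1 in 3. Each value below is that of the library that stood apart, followed by the range of the other 3, and no cause was tested.

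Saline 4 was highest on the hepatocyte list, with 2442 TPM against 4.40 to 37.3. Plasma protein genes with the same library highest were Afp (1125 TPM against 0 to 21.1), Alb (677 TPM against 1.26 to 1.91), Serpina6 (549 TPM against 0), Apoa2 (200.2 TPM against 1.05 to 3.36) and Itih2 (177 TPM against 1.26 to 3.10), and further Ambp (159 TPM against 0), Apoa1 (116 TPM against 0.455 to 9.38), Serpinf2 (106 TPM against 0 to 0.205), Ahsg (84.2 TPM against 0), Plg (56.0 TPM against 0) and Apob (37.3 TPM against 0.258 to 0.77). It was also highest for Guca2b (1081 TPM against 0.616 to 28.6), Akr1b7 (300.3 TPM against 0 to 3.95), C3 (229.7 TPM against 0.427 to 4.41), Akr1c18 (122 TPM against 0 to 2.05) and Cuzd1 (101 TPM against 0.164 to 3.39). Among transport genes it was highest for Aqp8 (72.8 TPM against 0 to 0.994), Abcb1b (59.4 TPM against 0.197 to 1.26) and Aqp5 (28.4 TPM against 0 to 0.635). Junb, an immediate early factor, had 15.1 TPM against 4.65 to 5.89, and the small RNA gene Rny1 had 6.09 TPM against 0. The Hox genes Hoxb6 (1.68 TPM against 0) and Hoxb8 (1.15 TPM against 0 to 0.167) rest on a few counts. Saline 4 was lowest for the bicarbonate transport list (3258 TPM against 3388 to 3410), for the midline factor Msx1 (502 TPM against 538 to 543), for Vegfa (141 TPM against 157 to 159), for Atf4 (131 TPM against 152 to 155) and for the neuronal gene Stmn2 (8.53 TPM against 25.5 to 27.3).

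Saline 3 was highest on the keratinocyte and muscle list, with 87.5 TPM against 3.09 to 8.01, and on its muscle members Acta1 (39.4 TPM against 0.573 to 1.57), Actc1 (22.8 TPM against 0 to 2.70), Myh3 (12.8 TPM against 0 to 0.742) and Myh8 (5.17 TPM against 0 to 0.216). Xist had 290.1 TPM against 120.3 to 131. Smaller gaps of this library concerned Rpl7 (2233 TPM against 2123 to 2129), Timp3 (449.6 TPM against 375 to 383), Slco1a4 (354 TPM against 283 to 289) and Fgf18 (12.6 TPM against 10.4 to 10.6). It was lowest for Spint2 (849 TPM against 925 to 940.3) and Ier2 (16.6 TPM against 21.4 to 22.2).

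Saline 2 was highest for Abca2 (65.4 TPM against 57.5 to 58.4), Lmo2 (33.4 TPM against 27.9 to 28.5) and Neurod1 (16.4 TPM against 1.34 to 2.44), and lowest for ND5 (2626 TPM against 3172 to 3194). Saline 1 was highest for Nfic (53.2 TPM against 47.1 to 48.1) and Ngp (7.36 TPM against 1.17 to 1.28), and lowest for the amino acid carrier list (3497 TPM against 3745 to 3782).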

How the results depend on the processing

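Each of the 12 summary values was recomputed with mitochondrial genes left out, with protein-coding genes alone, without length scaling, with TMM factors (0.992 to 1.01), with the median over libraries (not for the gene count), with broken lines rejoined, and without short or rarely counted genes. The last 4 kinds, the TMM factors included, moved no value by more than its spread. Thresholds of 0.5 and 5 TPM gave 15826 and 11542 detected genes in place of 14666. Without mitochondrial genes the share of the 100 leading genes was 20.4% and that of transporters 2.22%; without Ttr in the total the former was 19.6%. With protein-coding genes alone the epithelial list held 1.66%, transporters 2.24% and secreted factors 3.33%. Without length scaling, which weights long transcripts, the leading 100 genes held 14.7% of counts and Ttr 12004 CPM. The lists then held 1.76% (epithelium), 0.292% (mesenchyme), 0.146% (endothelium), 0.0378% (macrophages), 0.275% (erythroid), 0.0213% (neurons), 3.20% (transporters), 3.52% (secreted factors) and 0.921% (transcription factors). With each library left out in turn, 14857 to 15013 genes were detected, since fewer libraries had to pass. The 100 leading genes held 21.3 to 21.9%, Ttr had 25881 to 28995 TPM, and the lists, in the same order, held 1.59 to 1.62, 0.211 to 0.218, 0.127 to 0.133, 0.0517 to 0.0590, 1.22 to 1.40, 0.00992 to 0.0126, 2.15 to 2.18, 3.18 to 3.25 and 0.641 to 0.659%. Of 274 named genes, 36 moved by over 1.5-fold or to 0 without 1 library, 23 of them without saline 4, 6 without saline 3, 4 without saline 1 and 3 without saline 2. No paired analysis was possible because the values come from 1 group and no test. Depth limits genes below about 1 TPM, where 3 counts in saline 4 reach 1.01 TPM for a gene of 2000 bases.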

Other observations

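A set of 6 genes, chosen after their values were seen, split the 4 pools into pairs with at least a 3-fold gap between the higher and the lower pair and less than that within the higher pair (genes with at least 50 counts in a library). Rpl26, a ribosomal protein gene, had 867, 95.2, 898 and 101 TPM in saline 1 to 4. The pseudogene Tmem181c-ps followed the same pattern at 18.6, 0.243, 9.90 and 0.502 TPM. Ly6e and Ly6a, genes of membrane-anchored Ly6 proteins, were high in saline 2 and 4 instead, at 117, 519, 108 and 402 TPM and at 8.98, 64.9, 10.7 and 90.5 TPM. Fam163a had 2.75, 18.6, 4.70 and 20.2 TPM, and Hbb-y, given above, was the sixth. The split sets saline 1 and 3 against saline 2 and 4 for all 6, and Hbb-bs, Hba-a1, Hbb-bt, Kl, Slc23a2 and Slc4a10 had the same higher pair as Rpl26. The cause was not tested.

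The 45 genes more than 2-fold above the mean of the other libraries in saline 4 did not follow a single order in saline 1 to 3. Of 17 genes more than 10-fold above that mean, 3 had 0 counts elsewhere, 3 were next highest in saline 3 and 11 in saline 1 or 2. Prap1, a secreted protein gene of gut and uterus, had 47.7, 108, 1.79 and 2497 TPM, with means of 664 TPM over 4 libraries and 52.7 TPM without saline 4. It shared its order with Guca2b and Akr1b7, whereas Afp was next highest in saline 3. Mt2, a metallothionein gene, and Hmox1, heme oxygenase, were also highest in saline 4: Mt2 had 208, 219, 207 and 455 TPM and Hmox1 had 49.96, 58.4, 47.3 and 115 TPM.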
